A study of Mus musculus with 9 samples.

Results

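The 10 genes described here belong to signalling through cyclic AMP: *Gnas* and its antisense transcript *Nespas*, the adenylyl cyclase genes *Adcy1*, *Adcy6* and *Adcy9*, the protein kinase A subunit genes *Prkaca*, *Prkacb*, *Prkar1a* and *Prkar2b*, and the transcription factor gene *Creb1*. They were taken by name from the 55450 annotated genes in the count files, and all 10 passed the filter on low counts (on average 5 or more read pairs per library) that left 19371 genes for testing. The libraries came from Rathke's pouches of 7 *Sox2Egfp/+* embryos at e13.5, which carry a green fluorescent protein gene in 1 copy of *Sox2*, and from the pituitary gland of 2 adult mice at 8 weeks after removal of the posterior lobe. No *Sox2* reporter allele is named for the adults, all animals were of a mixed 129Sv/c57BL6J background, and both stages held males and females, with the sex of each library not used here. Stage, dissected tissue and reporter allele differ together between the groups, and their effects cannot be told apart.

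In this pathway, a receptor coupled to the stimulatory G protein activates the alpha subunit encoded by *Gnas*, which switches on adenylyl cyclase, and the cyclic AMP that is made releases the catalytic subunits of protein kinase A from their regulatory subunits. The kinase then phosphorylates CREB, the product of *Creb1*, which activates genes with cyclic AMP response elements, while phosphodiesterases break cyclic AMP down and receptors coupled to the inhibitory G protein lower its synthesis. In the pituitary gland this route is known for carrying the signals of growth hormone-releasing hormone and corticotropin-releasing hormone, and dopamine and somatostatin act against it. *Gnas* is an imprinted locus with several first exons, and *Nespas* is transcribed across one of them on the opposite strand.

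The embryo libraries had 16738863 to 28537311 read pairs counted on genes, and the adult libraries had 36421545 and 31191117. Embryos 1 and 4 stood apart, with 59.7% and 62.8% of their read pairs counted whereas every other library had 73.9% or more. The same libraries had the highest levels of the red cell genes, of which 5 of 6 were higher in embryos, beside 24% of all tested genes. Levels per length are given as TPM (counts divided by the length of the gene's merged exons, scaled to the same total in each library). The red cell genes summed to 323175 TPM in embryo 1 and 364827 TPM in embryo 4, to 28989 to 67937 TPM in the remaining embryos and to 2744 and 7037 TPM in adults, with *Hbb-y* the most abundant in embryos and *Hbb-bs* in adults. Because such genes take up much of the total in some libraries, TPM were used mainly to compare genes within a library, and tests between stages rest on counts scaled to library totals corrected with the TMM method (CPM). Summed TPM of marker lists share their total with the red cell genes, which makes them lower in embryos 1 and 4 than they would otherwise be. In adults the total is shared with the hormone cell genes (388106 and 413000 TPM), which lowers the sums of the other lists there in the same way. Summed TPM were not tested.

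Markers of hormone cells and of the pouch differed between the stages. Of 11 hormone cell markers, 10 were higher in adults (27.4% of all tested genes were higher in adults and 24% in embryos), and the list summed to 388106 and 413000 TPM in adults, led by *Gh*, and to 1716 to 3066 TPM in embryos, led by *Cga*. *Gh* and *Prl* had under 2 CPM in every embryo, and *Lhb* and *Pax7* under 0.3 CPM. Among markers of pouch progenitors, *Hesx1* was at 11.0 to 40.3 CPM in embryos and 0.339 and 0.562 CPM in adults, and *Lhx4* at 5.37 to 42.1 CPM and 1.09 and 1.38 CPM. *Sox2*, the gene that carries the reporter in the embryos, was higher in the adults, at 26.5 to 44.8 CPM in embryos and 64.0 and 56.8 CPM in adults. *Avp* and *Oxt* encode hormones stored in the posterior lobe, where the axons of the neurons that make them end. *Avp* was at 0 in every embryo and at 1.75 and 3.43 CPM in adults. *Oxt* was at 0 to 0.198 CPM in embryos and at 1.57 and 1.69 CPM in adults, and both genes were higher in adults. The connective tissue list held 3 genes that were higher in embryos and 1 that was higher in adults, summing to 122 to 765 TPM in embryos and 155 and 102 TPM in adults, led by *Col3a1* in 6 embryos and *Col1a2* in adults. The endothelial list held 2 of 4 genes that were higher in embryos and the macrophage list 1 of 4. Endothelial genes, led by *Cdh5*, summed to 19.6 to 150.3 TPM in embryos and to 46.3 and 28.4 TPM in adults, and macrophage genes to 88.4 to 360.1 TPM and to 128 and 191 TPM, led by *C1qb* in embryos and adult 2 and by *C1qa* in adult 1. Of 8 neural and posterior lobe markers, 3 were higher in adults and 2, *Nkx2-1* and *Rax*, in embryos, and the list, led by *Tubb3*, summed to 38.6 to 330.4 TPM in embryos and 144 and 98.5 TPM in adults. The part of this change in cell types in the differences below was not tested, and in such bulk samples fewer cells of a type and less RNA per cell cannot be told apart.

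Of the 10 genes, 6 were higher in the adult pituitary and none in the pouch at an adjusted p-value below 0.05 (edgeR quasi-likelihood test, Benjamini-Hochberg adjustment over all tested genes). These were *Gnas*, *Nespas*, *Adcy6*, *Adcy9*, *Prkacb* and *Prkar2b*. None was higher in the pouch at an unadjusted p below 0.05 or with DESeq2 either. Across all tested genes, 51.4% passed this threshold, 27.4% with higher counts in adults and 24% with higher counts in embryos. With a fold change above 4 as a second condition, 4 of the 10 were called, all higher in adults (*Nespas*, *Adcy6*, *Adcy9* and *Prkar2b*), against 25.8% of all tested genes, of which 14.6% were higher in adults and 11.3% in embryos. The median log2 fold change, embryo over adult, was -1.86 over the 10 genes and -0.04 over all tested genes. When each library was corrected for the length and GC content of transcripts, *Nespas* and *Adcy9* were the 2 genes still above 4-fold. Of all 19371 tested genes, 4004 were then called. Of the 10 genes, 7 passed the test, 6 higher in adults and *Adcy1* higher in embryos, beside 23.9% and 24.5% of all tested genes. This correction bears on the comparison because longer transcripts had lower embryo-over-adult ratios (Spearman's rho of -0.39 across the 19371 tested genes, which are not independent, and 0.02 after the correction).

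**Figure D1:**
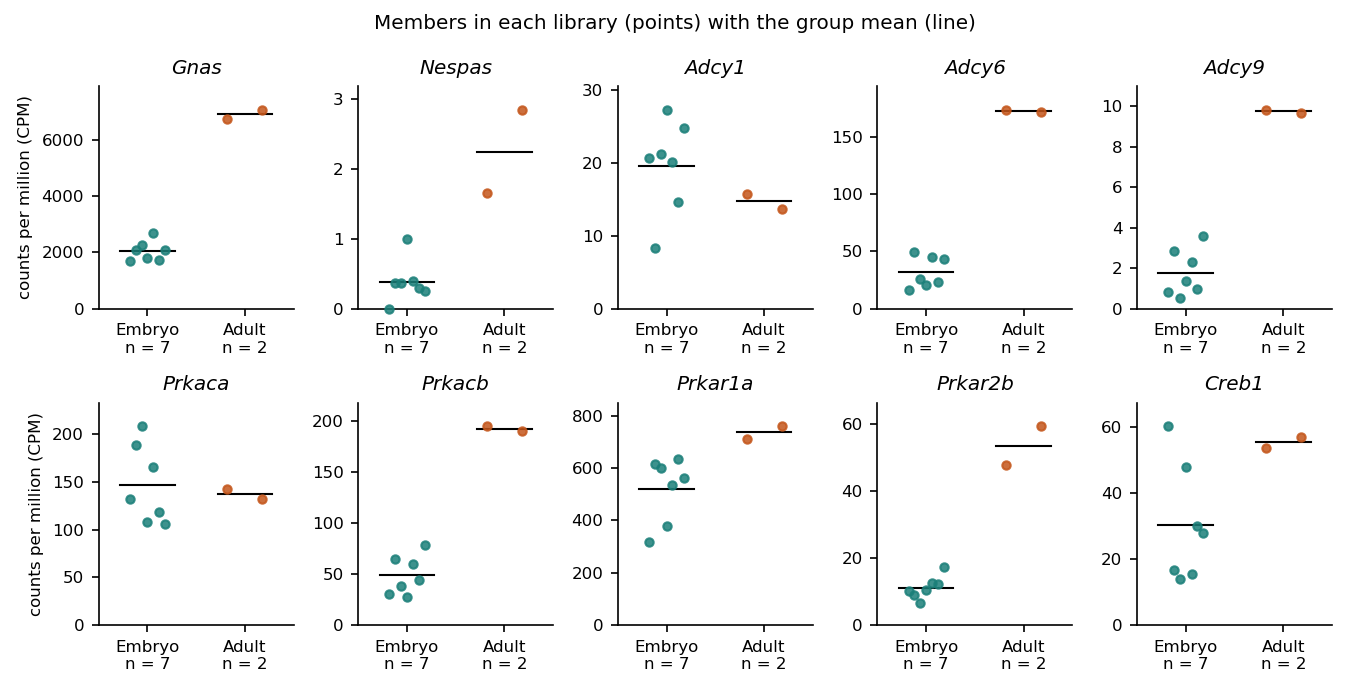
Normalised counts of the 10 genes in CPM (vertical axes, each starting at 0) for the 7 embryos and the 2 adults, with libraries as points and group means as lines. For *Gnas*, *Nespas*, *Adcy6*, *Adcy9*, *Prkacb*, *Prkar1a* and *Prkar2b* both adults lie above every embryo, and for *Adcy1*, *Prkaca* and *Creb1* the groups overlap.

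*Gnas* (ENSMUSG00000027523.19) lies on the plus strand of chromosome 2 (GRCm38, chr2:174284320-174346744), with 19 separate exon blocks that cover 11186 bases. Transcripts that begin at its first promoter encode the secretory protein NESP55, and those that begin at the last one encode the stimulatory alpha subunit. *Nespas* (ENSMUSG00000086537.7, chr2:174281237-174295436) is annotated on the minus strand over the first of these starts. A second minus-strand gene, *Gm20721* (ENSMUSG00000090625.1, chr2:174330319-174346712), mirrors the exons near the 3' end that most *Gnas* transcripts share. Exons of *Nespas* cover 8.83% of the exon bases of *Gnas*, and those of *Gm20721* cover 13.1%. The windows of 300 bases around the first and last start (RefSeq, GRCm38.p6, plus strand, 250 bases before to 50 after the start) are shown because read pairs were separated by these parts of the locus below, and that of *Prkar1a* because it was 1 of the 8 member genes with an entry (20 windows in all) and held the complete cyclic AMP response element. Capitals mark the letters TGACGTCA and its parts TGACG and CGTCA, which overlap in the complete element and are each other's reverse complement, so that both strands are searched.
*Gnas*, first start, chr2:174284070-174284369: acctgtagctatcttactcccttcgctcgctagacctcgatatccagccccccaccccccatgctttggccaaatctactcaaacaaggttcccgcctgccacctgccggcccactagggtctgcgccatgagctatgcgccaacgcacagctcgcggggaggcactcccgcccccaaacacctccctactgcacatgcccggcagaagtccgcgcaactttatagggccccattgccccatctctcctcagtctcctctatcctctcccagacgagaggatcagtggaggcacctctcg
*Gnas*, last start, chr2:174329756-174330055: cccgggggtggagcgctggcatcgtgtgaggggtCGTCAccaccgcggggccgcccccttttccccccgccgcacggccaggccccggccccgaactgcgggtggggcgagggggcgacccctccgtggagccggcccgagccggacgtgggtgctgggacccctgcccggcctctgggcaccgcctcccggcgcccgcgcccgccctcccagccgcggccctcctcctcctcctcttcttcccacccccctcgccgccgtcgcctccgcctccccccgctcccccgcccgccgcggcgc
*Prkar1a*, chr11:109650612-109650911: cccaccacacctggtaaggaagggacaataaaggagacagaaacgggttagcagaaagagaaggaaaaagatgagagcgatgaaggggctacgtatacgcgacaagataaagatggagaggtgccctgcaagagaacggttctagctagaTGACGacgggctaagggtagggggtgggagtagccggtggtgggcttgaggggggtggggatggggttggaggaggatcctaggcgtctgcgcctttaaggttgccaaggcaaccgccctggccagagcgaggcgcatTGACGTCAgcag

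The window at the first start had 61% G and C and 16 CpG dinucleotides, with no capital letters. That at the last start had 81.7% G and C, 40 CpG dinucleotides and 1 such part. Of the 20 member windows, 9 held a part and 2, both overlapping windows of *Prkar1a*, held the complete one. Among 32851 windows of all genes, 20.8% held a part and 1.79% the complete one. A match to these letters is a description of the sequence only.

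*Gnas* transcripts were abundant at both stages and more abundant in the adults. In the embryos its level was 1689 CPM at the lowest, 2087 at the median and 2676 at the highest, and in the adults 6742 and 7069 CPM. Every embryo lay below both adults. By mean CPM it ranked 54 among all genes in the embryos and 5 in the adults. The log2 fold change, embryo over adult, was -1.75 ± 0.28 (SE), which is 3.37-fold higher in adults and short of the 4-fold threshold, with an adjusted p of 0.000167 in the edgeR test. Without embryos 1 and 4 the log2 fold change was -1.64.

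The unstranded count misses most of these read pairs. The strand-specific column held 23073, 61787, 55413, 25685, 73881, 35006 and 65256 read pairs on *Gnas* in embryos 1 to 7, and 278236 and 251568 in adults. The unstranded column held 633 to 1954 per embryo and 16598 and 14179 per adult. This was 1.81% to 5.03% of the strand-specific count among embryos, and 5.97% and 5.64% among adults. Over all genes the unstranded total was 95.4% to 96.5% of the strand-specific one in each library. An unstranded count leaves out a read pair that overlaps exons of genes on both strands. With it the log2 fold change of *Gnas* was -2.76 (adjusted p = 3.86e-06, against a range of 1.36e-12 to 0.00449 over 19 alternative analyses), so that counting by strand changed the size of the difference and not its direction. The column for the other strand held 24 to 191 read pairs per embryo and 533 and 509 per adult, at most 0.258% of both strands together.

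The columns of the antisense genes divide the *Gnas* read pairs by part of the locus, an analysis added after these counts had been seen. Pairs of the *Gnas* strand that overlapped exons of *Nespas*, and so came from around the first start, pairs that overlapped exons of *Gm20721*, and pairs on exons of *Gnas* alone summed to the *Gnas* count to within 0.617% in every library. Pairs around the first start were at 3.81 CPM at the lowest, 6.88 at the median and 15.0 at the highest in embryos, and at 256 and 355 CPM in the adults. This part was 34.5-fold higher in adults (log2 fold change -5.11 ± 0.42, adjusted p = 8.54e-07 in the edgeR fit with all genes). Pairs over the shared exons near the 3' end were at 1596 to 2593 CPM in embryos, with a median of 2012, and at 6054 and 6272 CPM in adults, 3.11-fold higher (log2 fold change -1.64 ± 0.28, adjusted p = 0.000278). Pairs on exons of *Gnas* alone lay between, at 31.3 to 84.9 CPM in embryos and 402 and 398 CPM in adults (log2 fold change -2.79 ± 0.28, adjusted p = 3.83e-06). These are the same read pairs as in the unstranded column above, so this value and the -2.76 given there are not separate results.

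The part around the first start was 0.171% to 0.719% of *Gnas* pairs in embryos, with a median of 0.391%, and 3.79% and 5.02% in adults, so every adult share exceeded every embryo share. The share on *Gm20721* exons was 94.5% to 97.7% in embryos and 89.8% and 88.7% in adults. Each of the 3 shares gave p = 0.0556 in a two-sided exact permutation test of 7 against 2 libraries (36 arrangements, adjusted p = 0.0556 over the 3 shares), which is the smallest value that this design can give and follows from the complete separation. The test was added after that separation had been seen, and the 3 shares, which sum to close to 100%, are not separate tests.

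**Figure D2:**
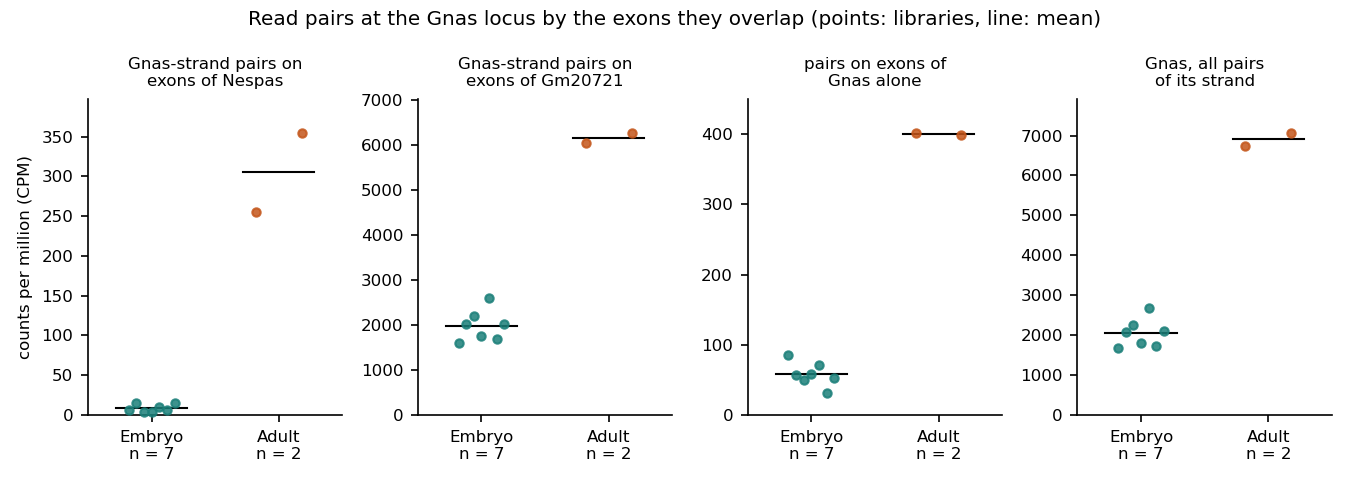
Read pairs at the *Gnas* locus in CPM (vertical axes, each starting at 0), divided by the exons they overlap, for 7 embryos and 2 adults, with libraries as points and group means as lines. The part on exons of *Nespas* is at most 15.0 CPM in embryos and 256 and 355 CPM in adults, and the part on exons of *Gm20721* holds most of the pairs at both stages.

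*Nespas* itself was scarce. In the strand-specific column it had 0, 11, 9, 14, 11, 6 and 8 read pairs in embryos 1 to 7 and 68 and 101 in the adults, or 0 to 0.987 CPM (median 0.365) against 1.65 and 2.84 CPM. Both adults lay above every embryo, and the log2 fold change was -2.55 ± 0.79 (adjusted p = 0.0150). The gene did not pass without adult 2 (log2 fold change -2.12) or with replicate number as a block (-3.94, adjusted p = 0.0604 in the edgeR test). The call thus depended on adult 2. In the block fit only embryos 1 and 2 share a number with an adult, so its stage difference rests on them and the adults. The numbers mark different animals, so that fit does not show how the call depends on the model. Read pairs on the *Nespas* strand were 0.640% and 0.794% of all pairs at its exons in the adults, and 0% to 20.6% in embryos, where only 0 to 14 pairs lay on that strand. For comparison, among 2803 abundant protein-coding genes with no annotated gene on the other strand, the share of pairs on the wrong strand had a median of 0.104% and 0.116% and a 95th percentile of 1.13% and 1.15% in the adults. In embryos that 95th percentile was 0.724% to 1.41%. The *Nespas* shares thus lay between the median and the 95th percentile of wrong-strand shares in both adults, above the 95th percentile in embryos 2 to 7 and at 0 in embryo 1. Whether the pairs come from *Nespas* RNA was not tested. The unstranded column gave *Nespas* 0 to 9 read pairs in embryos and 133 and 235 in adults, with a log2 fold change of -4.72, a column in which pairs from *Gnas* transcripts around the first start are not kept apart.

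Upstream of *Gnas*, of 16 receptors coupled to the stimulatory G protein, 8 were higher in adults, 4 were higher in embryos and 4 did not pass the test, with a median log2 fold change of -2.19. Of all tested genes, 27.4% were higher in adults and 24% in embryos, so the share of receptors higher in embryos, 25%, was close to that of all genes. Without adult 2, 6 were higher in adults and 3 in embryos (17.9% and 12.7% of all tested genes), and without adult 1, 8 and 3 (18.9% and 14.0%). *Ghrhr*, the receptor for growth hormone-releasing hormone, had 0 read pairs in 6 embryos, 4 in embryo 3, and 3797 and 3944 in the adults, where it was the most abundant of the list per length (82.3 TPM). *Crhr1*, the receptor for corticotropin-releasing hormone, was at 0.353 to 1.90 CPM in embryos and 26.1 and 29.7 CPM in adults (log2 fold change -4.97 ± 0.46, adjusted p = 2.13e-06). *Adcyap1r1*, the receptor for the neuropeptide PACAP, was at 1.41 to 6.92 CPM in embryos and 55.5 and 66.0 CPM in adults. *Gpr6*, an orphan receptor, had at most 3 read pairs in any embryo and 395 and 741 in the adults. The called receptors with higher counts in embryos were *Ptger2*, a prostaglandin E2 receptor (log2 fold change 2.73 ± 0.48, or 1.92 with the replicate block), and the adenosine receptors *Adora2a* (3.10 ± 0.69) and *Adora2b* (3.71 ± 0.60, or 3.08 after the length and GC correction). In embryos their mean levels were alike, at 5.50, 5.63 and 6.48 TPM, and which one led depended on the embryo and on the length used. These 3 receptors separated the groups completely, every embryo lying above both adults.

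Of 5 receptors coupled to the inhibitory G protein, 4 were higher in adults and none in embryos (27.4% and 24% of all tested genes), and the remaining one, *Sstr2*, was at 0 to 1.29 CPM in embryos and 3.13 and 2.28 CPM in adults. *Drd2*, the dopamine receptor of lactotrophs and melanotrophs, was at most 0.693 CPM in embryos and 177 and 209 CPM in adults (log2 fold change -9.17 ± 0.48, adjusted p = 2.04e-08). It was the most abundant of the list in adults, at 214 TPM, and *Sstr1* led in 4 of the 7 embryos, with a mean of 1.42 TPM. The somatostatin receptors *Sstr1*, *Sstr3* and *Sstr5* had log2 fold changes of -4.94, -5.47 and -4.89. *Sstr5* had 15 of its 23 embryo read pairs in embryo 4, without which its log2 fold change was -6.46.

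Among 7 genes for G protein alpha subunits of the stimulatory and inhibitory classes, *Gnas* was the most abundant in both adults and in every embryo but embryo 2, where *Gnai2* was above it per merged exons and below it with the longest transcript (37.2% against 58.0%). It made up 44.5% to 56.3% of their summed level per length in embryos and 79.7% and 81.1% in adults. *Gnai2*, an inhibitory subunit, had 29.5% to 47.4% in embryos, the highest share being that of embryo 2, and 9.79% and 8.20% in adults. Its own level was higher in embryos (410 to 752 CPM against 280 and 242 CPM, log2 fold change 1.10 ± 0.31, adjusted p = 0.00912). Of the 7 genes, 4 were higher in adults and 1, *Gnai2*, in embryos, beside 27.4% and 24% of all tested genes. With either adult left out *Gnai2* did not pass, in fits where fewer of all tested genes passed. *Gnai1*, *Gnal* and *Gnao1* were higher in adults, with log2 fold changes of -2.21, -2.95 and -1.83, and *Gnai1* and *Gnal* were at -1.76 and -2.18 after the length and GC correction. Without adult 2 *Gnai1* was at -1.91. *Gnas* is divided by the length of all its merged exons here, which understates its level, since each transcript uses only some of them. With the longest transcript as length its mean share was 63.7% in embryos and 88.6% in adults.

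**Figure D3:**
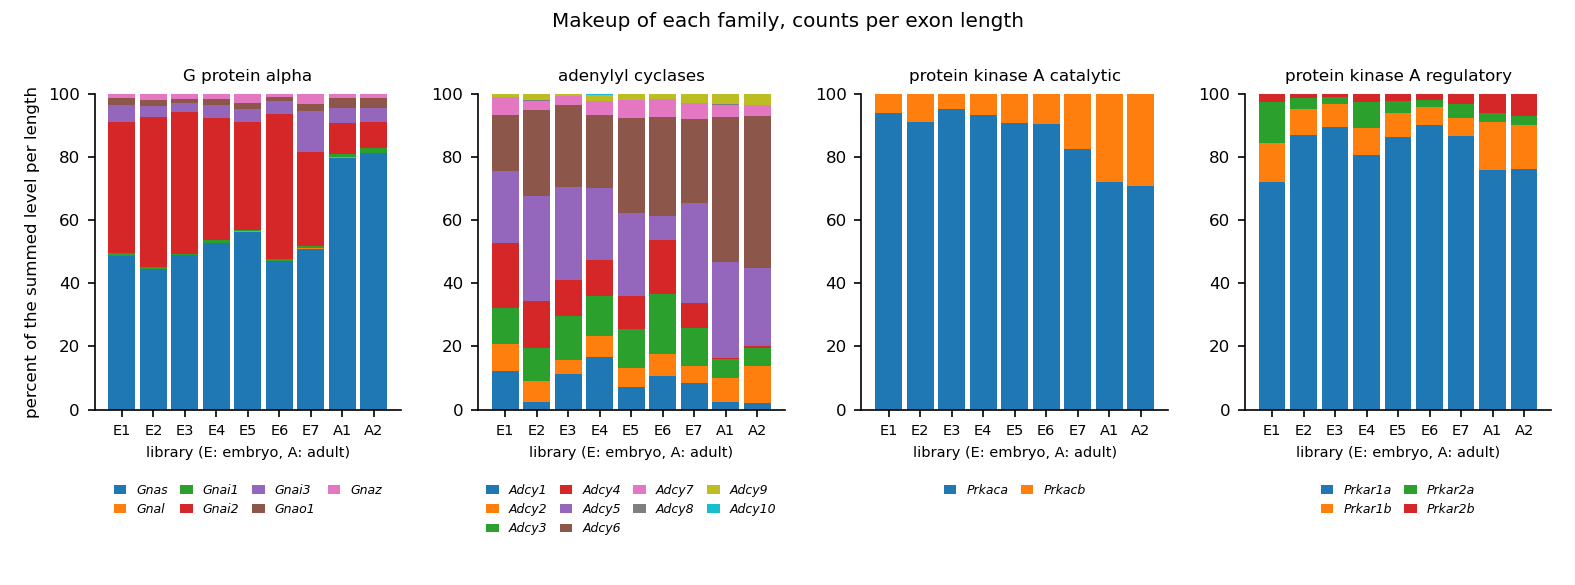
Makeup of 4 gene families in each library as percent of the family's summed level per length (vertical axis, 0 to 100; E1 to E7 are embryos and A1 and A2 adults). *Gnas* is 44.5% to 56.3% of the alpha subunits in embryos and 79.7% and 81.1% in adults, *Adcy6* takes the largest share of the cyclases in adults, and *Prkacb* and *Prkar2b* take larger shares in adults than in any embryo.

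Adenylyl cyclases make cyclic AMP, and the makeup of this family differed between the stages. Of the 10 genes, 9 were tested, 5 were higher in adults, 1 was higher in embryos and 3 did not pass, beside 27.4% and 24% of all tested genes. Without adult 1, 3 of 8 tested were higher in adults, and without adult 2 4 of 9, beside 18.9% and 17.9% of all tested genes. With the length and GC correction 3 were higher in adults and 2 in embryos, near the 23.9% and 24.5% of all tested genes. *Adcy6*, a cyclase inhibited by calcium, was at 16.3 CPM at the lowest, 26.1 at the median and 49.1 at the highest in embryos and at 174 and 173 CPM in adults. Both adults were above 3 times the highest embryo value, and the log2 fold change was -2.44 ± 0.34 (adjusted p = 7.22e-05), or -1.75 and under 4-fold after the length and GC correction. *Adcy9*, a widely expressed cyclase that forskolin activates only weakly, was low at both stages, at 0.528 to 3.56 CPM (median 1.34) in embryos and 9.81 and 9.67 CPM in adults (log2 fold change -2.45 ± 0.56, adjusted p = 0.00235, with a corrected log2 fold change of -2.03). *Adcy1*, a cyclase stimulated by calcium and calmodulin, was at 8.38 to 27.3 CPM (median 20.6) in embryos and 15.7 and 13.7 CPM in adults, with overlapping groups (log2 fold change 0.41 ± 0.38, adjusted p = 0.385). Corrected for length and GC content, its log2 fold change was 1.91 with an adjusted p of 0.00199, and adjusted p ranged from 0.00199 to 0.815 over the 19 alternatives. *Adcy4* was the called cyclase with higher counts in embryos (6.98 to 18.5 CPM against 1.38 and 1.43 CPM, log2 fold change 2.93 ± 0.49), and *Adcy2* was called in the other direction (log2 fold change -2.25 ± 0.36, or -1.99 without adult 2).

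Per length, *Adcy6* made up 17.8% to 31.3% of the cyclase transcripts in embryos and 45.8% and 48.1% in adults. *Adcy5*, its closest relative, ranged from 7.68% to 33.2% in embryos and was at 30.3% and 24.7% in adults. Its own level was higher in adults (log2 fold change -1.64 ± 0.52), but it did not pass after the length and GC correction (-0.74). In embryos the 2 genes had like mean levels (11.5 TPM for *Adcy5* and 11.2 for *Adcy6*), and which one led depended on the embryo, and for the means on the length used. *Adcy1* made up 2.52% to 16.6% in embryos and 2.25% and 2.07% in adults. *Adcy4* made up 7.85% to 20.8% and then 0.528% and 0.581%.

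The genes for the catalytic subunits of protein kinase A differed in their pattern. *Prkaca*, which encodes the main catalytic subunit of most tissues, was at 106 CPM at the lowest, 132 at the median and 208 at the highest in embryos and at 143 and 132 CPM in adults. The adults lay inside the embryo range, and the log2 fold change was 0.10 ± 0.30 (adjusted p = 0.804). Its sign changed to -0.11 with library size alone as normalisation and to -0.45 with the correction for length and GC content. *Prkacb*, the gene for the second catalytic subunit, was at 27.6 to 78.7 CPM (median 44.4) in embryos and 195 and 191 CPM in adults. Both adults exceeded every embryo, and the gene was 3.91-fold higher in adults (log2 fold change -1.97 ± 0.33, adjusted p = 0.000258), just under the threshold of 4. After the length and GC correction its log2 fold change was -1.31. Per length, *Prkaca* remained the more abundant at both stages, with 129 ± 59.1 TPM (SD, n = 7) against 13.3 ± 8.94 for *Prkacb* in embryos and means of 156 against 62.2 in adults. The share of *Prkacb* was 4.96% to 17.4% in embryos and 27.9% and 29.1% in adults.

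The regulatory subunits hold the kinase inactive until they bind cyclic AMP. *Prkar1a*, the type I alpha subunit, whose windows with the complete response element are described above, was the most abundant of the 4 genes at both stages. It was at 317 CPM at the lowest, 561 at the median and 635 at the highest in embryos and at 712 and 759 CPM in adults. Although no embryo reached the adult values, the log2 fold change of -0.50 ± 0.29 did not pass the test (adjusted p = 0.169). The lowest embryo values were those of embryos 1 and 4 (317 and 380 CPM), and without them the log2 fold change was -0.30. *Prkar2b*, the type II beta subunit, was at 6.49 to 17.4 CPM (median 10.4) in embryos and 47.8 and 59.3 CPM in adults, 4.79-fold higher (log2 fold change -2.26 ± 0.30, adjusted p = 4.31e-05), or at a log2 fold change of -1.85 after the length and GC correction. *Prkar1b* was also higher in adults (log2 fold change -1.58 ± 0.23), and *Prkar2a* had a log2 fold change of -0.02 ± 0.43. Per length, *Prkar1a* made up 71.9% to 90.1% of the regulatory transcripts in embryos and 75.8% and 76.2% in adults, while *Prkar2b* made up 1.15% to 3.17% and then 6.02% and 7.05%. Among the 3 genes for inhibitor peptides of the kinase, *Pkib* was higher in adults (log2 fold change -3.25 ± 0.52, or -1.89 after the length and GC correction), *Pkig* was higher in embryos (1.43 ± 0.31) and *Pkia* did not pass.

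**Figure D4:**
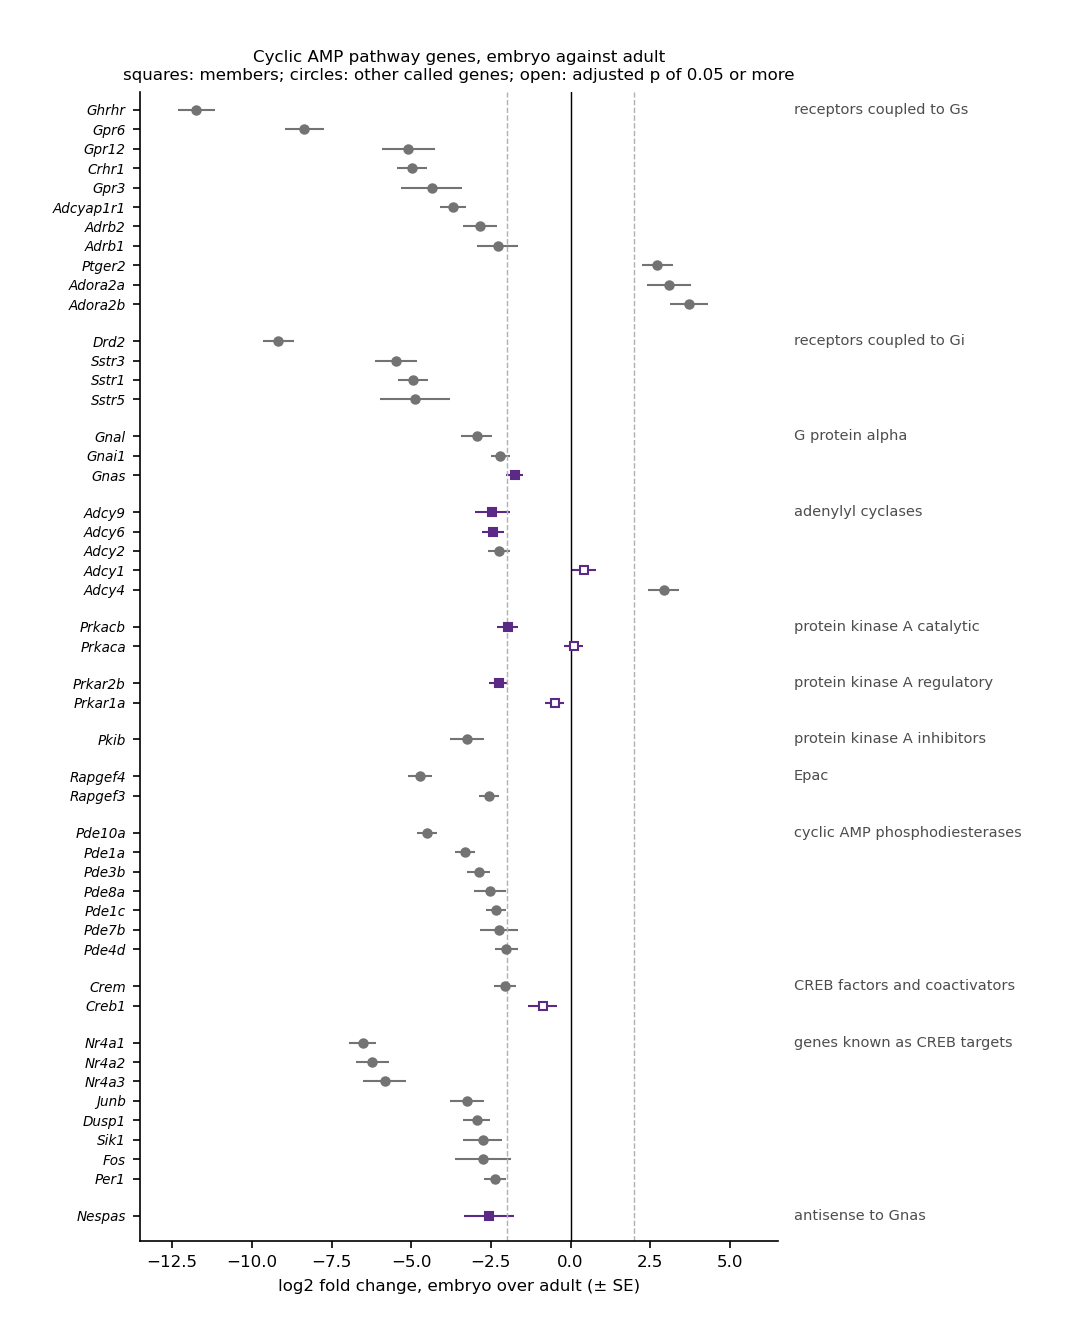
Log2 fold change, embryo over adult, with its standard error (horizontal axis) for the member genes (squares) and the other called genes of the pathway lists (circles), grouped by role without anchoring proteins and neighbours of *Gnas*, where open squares have an adjusted p of 0.05 or more and dashed lines mark a fold change of 4. Most called genes lie left of 0, and *Ptger2*, *Adora2a*, *Adora2b* and *Adcy4* lie to the right.

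Both Epac genes, which encode exchange factors activated by cyclic AMP without the kinase, were higher in adults, as were 27.4% of all tested genes: *Rapgef3* was at 6.13 to 17.3 CPM in embryos and 54.1 and 55.2 CPM in adults, and *Rapgef4* at 1.22 to 4.51 CPM and 71.3 and 63.3 CPM. Of 13 anchoring protein genes 11 were tested, 7 were higher in adults and 4 did not pass, beside 27.4% of all tested genes that were higher in adults. *Akap11* was the most abundant per length in adults (52.6 TPM), and in embryos *Akap12* and *Akap1* had like means (13.2 and 12.9 TPM), with *Akap8* leading under the longest transcript. Corrected for length and GC content, 2 of the 11 were higher in adults and 1 in embryos (23.9% and 24.5% of all tested genes). Without adult 1 or adult 2 the counts in adults were 5 and 2, beside 18.9% and 17.9% of all tested genes. *Akap11* was at 6.29 to 16.9 CPM in embryos and 187 and 223 CPM in adults (log2 fold change -4.04 ± 0.31, or -2.19 after the length and GC correction). Of 16 phosphodiesterase genes 15 were tested, 8 were higher in adults (27.4% of all tested genes) and 7 did not pass. The largest difference was that of *Pde10a*, at 1.75 to 4.14 CPM in embryos and 55.3 and 78.4 CPM in adults (log2 fold change -4.50 ± 0.32, adjusted p = 2.51e-07), or -3.30 after the length and GC correction. *Pde1a*, *Pde3b*, *Pde8a*, *Pde1c*, *Pde7b* and *Pde4d* were also called, with log2 fold changes from -3.31 to -2.01. *Pde4d*, at the threshold, was under 4-fold in 9 of its 19 alternatives (-1.72 after the length and GC correction), and *Pde3b* was at -1.55 after that correction. *Pde1c* and *Pde7b* no longer passed after the length and GC correction, with log2 fold changes of -0.58 and -1.12, and under that correction 6 of the 15 genes were higher in adults and 2 in embryos (23.9% and 24.5% of all tested genes). *Pde7b* did not pass without adult 1 either (log2 fold change -1.63). *Pde1b* had the highest mean per length at both stages (10.3 TPM in embryos, where it led in 5 of 7, and 19.7 in adults).

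*Creb1* varied widely among the embryos. It was at 14.1 CPM at the lowest, 28.0 at the median and 60.3 at the highest, and at 53.8 and 57.1 CPM in the adults. Embryos 1 and 4, the libraries with the lowest counted share and the highest red cell levels, had 60.3 and 47.8 CPM, and the other 5 had 14.1 to 30.0 CPM. The log2 fold change was -0.87 ± 0.46 (adjusted p = 0.123). Without embryos 1 and 4 it was -1.39 with an adjusted p of 0.00259, while the correction for length and GC content turned it to 0.91 (adjusted p = 0.0624), so the direction for *Creb1* depended on the processing. Adjusted p ranged from 0.00259 to 0.312 over its 19 alternatives. The gene for the coactivator *Crebbp* showed the same libraries on top, with 110 and 93.1 CPM in embryos 1 and 4 and 17.1 to 23.7 CPM in the other embryos. Of the 8 CREB factors and coactivators, 5 were higher in adults and 3 did not pass, and 3 were higher without adult 1 and 4 without adult 2 (27.4%, 18.9% and 17.9% of all tested genes). *Crem*, a CREB relative that is itself induced by cyclic AMP, was called (8.93 to 24.4 CPM in embryos, 43.6 and 105 CPM in adults, log2 fold change -2.07 ± 0.35, or -1.76 after the length and GC correction and -1.31 without adult 2). By merged exons it led the list in adult 2 (50.2 TPM) and was below *Crtc2* (24.4 TPM), *Crtc1*, *Atf1* and *Ep300* in adult 1, and with the longest transcript it led in both. *Crtc2* had the highest mean in embryos, at 10.8 TPM, and led in 3 of the 7.

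Of 10 genes known as CREB targets, 9 were higher in adults, all by more than 4-fold in the edgeR test of all libraries, and *Fosb* did not pass (27.4% of all tested genes were higher in adults). Without adult 2, *Crem*, *Per1* and *Sik1* were under 4-fold, with log2 fold changes of -1.31, -1.35 and -1.68. *Crem* was under 4-fold in 5 of its 19 alternatives and *Per1* in 3, the length and GC correction (-1.76 and -1.99) among them. The median log2 fold change was -2.86. Per length, *Fos* had the highest mean in embryos (29.1 TPM), leading in 3 of the 7. *Nr4a1* led in adult 2 alone (450.2 TPM), and in adult 1 (106 TPM) it was below *Fos* (319 TPM), *Junb* and *Dusp1*. *Nr4a1*, an orphan nuclear receptor gene induced within minutes by many stimuli, was at 1.95 CPM at the lowest, 4.25 at the median and 4.78 at the highest in embryos and at 130 and 561 CPM in adults (log2 fold change -6.53 ± 0.42, adjusted p = 1.09e-07), and without adult 2 its log2 fold change was -5.13. The promoter window shown (RefSeq, GRCm38.p6, plus strand) was chosen as the *Nr4a1* entry with the most parts of the element. It holds 4 parts in capitals and no complete one. Windows of the other genes in this list were not counted, so it does not describe the list.
*Nr4a1*, chr15:101266596-101266895: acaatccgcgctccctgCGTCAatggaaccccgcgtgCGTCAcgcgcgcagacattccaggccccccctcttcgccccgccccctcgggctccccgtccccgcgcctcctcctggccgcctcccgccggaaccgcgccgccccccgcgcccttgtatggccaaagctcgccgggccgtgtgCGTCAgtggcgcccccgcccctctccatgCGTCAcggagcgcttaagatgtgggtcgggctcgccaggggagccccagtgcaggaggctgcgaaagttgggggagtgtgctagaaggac

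*Nr4a2* and *Nr4a3*, its relatives, were at most 4.02 and 1.22 CPM in embryos. In adults *Nr4a2* was at 48.8 and 327 CPM and *Nr4a3* at 9.21 and 53.1 CPM. Adult 2 was thus several times above adult 1 for all 3 genes. It was also above adult 1, by a smaller factor, for *Crem*, *Per1* (57.4 and 177 CPM) and *Sik1* (27.6 and 90.1 CPM). The order was the other way round for *Fos* (264 and 133 CPM), and *Junb* (149 and 182 CPM) and *Dusp1* (178 and 159 CPM) were close in both. With 2 adults, 1 male and 1 female, these differences could not be tested, and sex and animal cannot be told apart. Without adult 1, *Fos* no longer passed (log2 fold change -2.20, adjusted p = 0.137, the highest over its 19 alternatives, with 3.95e-06 the lowest), and without adult 2 *Sik1* did not (adjusted p = 0.109, the highest over its 19 alternatives, with 1.15e-10 the lowest). Among the embryos *Fos* ranged from 1.67 to 82.7 CPM.

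**Figure D5:**
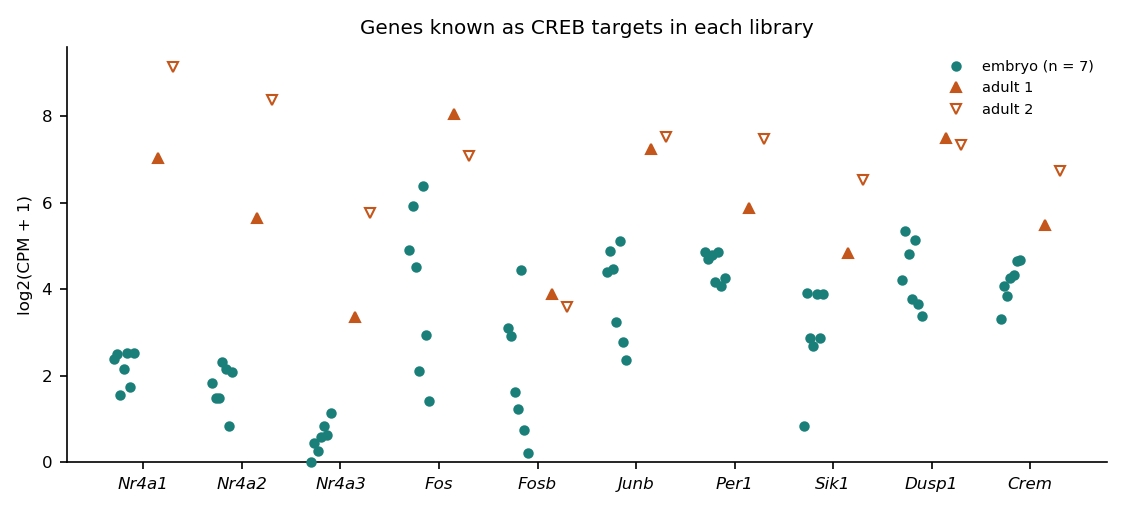
Genes known as CREB targets in each library as log2(CPM + 1) on the vertical axis, with circles for the 7 embryos, filled triangles for adult 1 and open triangles for adult 2. Adult 2 lies above adult 1 for the *Nr4a* genes, *Per1*, *Sik1* and *Crem*, and *Fosb* overlaps between the stages.

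Over the 10 members, *Nespas* among them, and all lists without the other neighbours of *Gnas*, 92 pathway genes were tested, each counted once. Of these, 56 were higher in adults, 7 were higher in embryos and 29 did not pass, with a median log2 fold change of -1.94 beside -0.04 for all tested genes. Of all tested genes, 27.4% were higher in adults and 24% in embryos. After the length and GC correction the counts were 47 and 11, beside 23.9% and 24.5% of all tested genes, and the median was -1.16, beside 0.03. Without adult 1 they were 48 and 5 of 90, beside 18.9% and 14.0%, and without adult 2 45 and 5 of 92, beside 17.9% and 12.7%.

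Of 12 genes beside *Gnas* on chromosome 2, 10 were tested, 3 were higher in adults, 3 were higher in embryos and 4 did not pass, beside 27.4% and 24% of all tested genes. With either adult left out, fewer of these genes passed, as did fewer of all tested genes. Those higher in embryos no longer passed without adult 2. The median log2 fold change of the list was 0.49 with both adults, 0.49 without adult 1 and 0.46 without adult 2. *Stx16* (log2 fold change -1.36), *Nespas* and the scarce *Zfp831* (-4.69, or -3.35 after the length and GC correction) were higher in adults. *Ctsz*, *Edn3* and *Atp5e*, with log2 fold changes of 0.89, 1.36 and 2.31, were higher in embryos. *Atp5e* was the most abundant per length at both stages (899 and 286 TPM), and its CPM was highest in embryos 1 and 4 (1558 and 1590, against 355 to 969 in the other embryos). Without them its log2 fold change was 1.78, after the length and GC correction 1.65, and without adult 2, where the gene did not pass, 2.20. The microRNA genes *Mir296* and *Mir298* had at most 3 read pairs in any library.

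Among 12743 other genes with 100 or more counts on average, those whose log2(CPM + 1) followed *Gnas* most closely over the 9 libraries were *Tmem25* (Pearson's r of 0.994), *Slc43a2* (0.994), *Arhgap44* (0.991), *Bsn* (0.990) and *Zdhhc23* (0.990). The libraries fall into 2 stages, so these values describe the difference between stages as well as the order within them. Among the member genes, r over the 9 libraries was highest for *Adcy6* (0.954), followed by *Prkacb* (0.919), *Prkar2b* (0.908) and *Adcy9* (0.891), and over the 7 embryos it was 0.745, 0.562, -0.01 and 0.400. For *Creb1* it was 0.364 over the 9 libraries and -0.83 over the embryos.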

How the data were processed

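Libraries were poly(A)-selected and strand-specific, made from single animals. The authors trimmed reads with Trimmomatic 0.39, aligned them to mm10 with STAR 2.7.5b and deposited its raw counts of read pairs per gene of Ensembl release 96, without normalisation, in an unstranded column and 1 column for each strand. Column 4, the strand of the transcript, was used. All 55450 identifiers were found in GENCODE M21. Read pairs that were unmapped, placed several times, ambiguous or outside genes were left out of library sizes, so that 59.7% to 84.0% of pairs remained.

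Genes with 5 or more counts on average, 19371 in all, were fitted by stage with the edgeR 4.0.16 quasi-likelihood test (R 4.3.3), with TMM factors of 0.753 to 1.21 and Benjamini-Hochberg adjustment over all of them. A gene passed at an adjusted p below 0.05 and was called where the fold change was also above 4. Standard errors are the log2 fold change divided by the root of its F statistic. The fit was tested on simulated counts, in which large changes were mostly recovered and smaller ones were often missed. With 2 adults, their spread rests on 1 difference, and p-values borrow information across genes. Counts carry no molecular identifiers.

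Named genes are the 10 members, called genes of the pathway lists, the most abundant gene of each list per length in each stage, and the 5 genes most like *Gnas*; other pathway genes, such as *Gnai2*, *Gnao1*, *Sstr2*, *Prkar1b*, *Prkar2a*, *Crebbp*, *Crtc1*, *Atf1*, *Ep300*, *Akap1*, *Akap8*, *Fosb*, *Stx16*, *Ctsz*, *Edn3*, *Mir296* and *Mir298*, were named after their values were seen. Members and lists were chosen with earlier results of these data known. Alternatives were DESeq2 1.42.0, 2 other normalisations, 3 other filters, the unstranded count, a spline correction for transcript length and GC content (4 degrees of freedom, genes with 50 or more counts on average), each library left out, embryos 1 and 4 left out, a replicate block, and the longest transcript as length. The division of *Gnas* pairs by part of the locus, with its permutation test, and levels per length without embryos 1 and 4 were added after seeing the data. The count and summed level of the pouch progenitor list are not reported here.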

Additional observations from a re-analysis of the deposited data

Results flagged for a closer look

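Among 71 series of values examined over the 7 embryos (CPM of the genes that the naming rule takes, the parts of the *Gnas* locus, summed marker levels and the share of read pairs counted), 10 had 1 embryo whose gap to the nearest other exceeded the critical share of the whole range (Dixon's test at 95%). The rate of about 1 in 20 by chance holds for normally distributed values. CPM near 0 need not follow it, so 10 of 71 cannot be read as an excess. *Nespas* was at 0.987 CPM in embryo 4 and at most 0.398 CPM in the others, and without embryo 4 its log2 fold change was -2.89. *Ghrhr* was at 0.162 CPM in embryo 3, from 4 read pairs, and at 0 in the others. Embryo 2 stood out for *Adora2a* (20.4 CPM against 3.98 to 8.86), *Rapgef3* (17.3 CPM against 6.13 to 9.08) and *Akap6* (2.702 CPM against 0.435 to 1.39). The same library had the highest summed levels of neural and posterior lobe markers (330.4 TPM against 38.6 to 147) and of macrophage markers (360.1 TPM against 88.4 to 176), and their part in those values was not tested. Red cell genes make such sums lower in embryos 1 and 4. *Sstr5* was at 1.06 CPM in embryo 4 and at most 0.217 CPM in the others, and without embryo 4 its log2 fold change was -6.46. *Pde7b* was at 14.5 CPM in embryo 7 against 1.46 to 6.99, and *Akap12* was at 67.7 CPM there against 16.7 to 37.4.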

How the results depend on the processing

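*Gnas* was higher in adults and passed the test under all 19 alternatives, with log2 fold changes from -2.76 (unstranded count) to -1.61 (length and GC correction) and adjusted p from 1.36e-12 to 0.00449. *Adcy6*, *Adcy9*, *Prkacb* and *Prkar2b* passed in the same direction under all of their 19. *Nespas* did not pass without adult 2 or with the replicate block (log2 fold change -3.94, adjusted p = 0.0604, range 0.000184 to 0.173). Library size alone moved the median log2 fold change of all tested genes from -0.04 to -0.26. The 5001 called genes became 2642 with at least 10 counts in every sample, a filter that left 13491 genes, and 8960 with a fold threshold of 2. Leaving out single libraries gave 3683 to 5290 called genes and 5839 to 10669 passing genes, the lowest with 1 adult left, which is then assumed to vary like the embryos. Members called went from 4 to 2 with the length and GC correction, where *Adcy6* and *Prkar2b* fell short of 4-fold, and were 3 to 5 elsewhere, apart from 6 at a fold threshold of 2. Directions turned for genes that did not pass: *Adcy1* to -0.16 with the replicate block, *Prkaca* to -0.11 with library size alone, and, with the length and GC correction, *Prkaca* to -0.45 and *Creb1* to 0.91. *Akap6*, which had passed, went to 0.0114 with that correction. The cause of these shifts was not tested. With the longest transcript as length, *Gnas* was at 880.3 TPM in place of 406.8 in embryos and at 3925 in place of 1747 in adults, or 63.7% and 88.6% of alpha subunits in place of 49.8% and 80.4%. By the same choice *Prkaca* was 84.7% and 57.6% of catalytic subunits in place of 91.0% and 71.5%, and, in adults, *Adcy6* was 48.9% of cyclases in place of 47.0% and *Prkar1a* 74.6% of regulatory subunits in place of 76.0%. Replicate numbers mark different animals, and deviations of same-numbered embryos and adults did not run together across genes (r of 0.04 for number 1 and -0.03 for number 2). In the replicate block only numbers 1 and 2 occur in both stages, so its stage difference rests on embryos 1 and 2 and the adults. That fit gave 4236 called genes. At the depths used, 3 read pairs are worth 0.0727 to 0.220 CPM, and levels below that rest on fewer read pairs and are uncertain.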
